A study of Homo sapiens with 3 samples.

Results

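The replication-dependent histone genes were examined on 3 expression arrays of a colorectal cancer cell line. Probe sets were taken when every gene symbol that the platform annotation gives them begins with a histone cluster name (H2AC, H2BC, H3C, H4C or H1- followed by a number, or the older HIST names). The rule took 78 of the 54613 probe sets that are not manufacturer's controls. Of these, 58 carry 1 symbol and 20 carry several, all of them histones, and together they name 69 of the 21357 genes named on the array. The rule uses symbols and no measured value, though it was written with earlier results of these data known. It also took in 9 probe sets that do not read replication-dependent histone genes: 1 for H1-10, a linker histone made outside S phase, 1 for its antisense RNA gene H1-10-AS1, 4 for the germline linker histones H1-7 and H1-8, and 3 for the pseudogenes H1-9P, H2AC5P and H4C10P. They were kept, and 7 of them are among the 14 H1 probe sets, so counts over H1 are also given without them.

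The 3 groups, with 1 array each, were SW620 cells stably infected with virus for full-length LATS2 (LATS2), with virus for residues 1 to 625 of LATS2 (LATS2N), and with control virus carrying an empty vector (EV). LATS2 is a kinase of the Hippo pathway, and residues 1 to 625 leave out its C-terminal kinase domain. All 3 groups thus carry a viral vector, in a medium with serum, and nothing in the labels says whether each is a clone or a pool. The labels of all 3 arrays name SW620, a line from a lymph node metastasis of colon cancer, while the design text of the series names SW480, another colorectal cancer line. With 1 array a group there was no spread between replicates and no test of any difference. Values are signals on a linear scale, and differences are described by size alone.

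Histones are the proteins around which DNA is wound: H2A, H2B, H3 and H4 form the core particle, and H1 binds the DNA that links particles. The replication-dependent genes stand in clusters as many near-identical copies without introns, and they are transcribed in S phase, when new chromatin is made. Their messages normally end in a stem-loop that is bound by SLBP in place of a poly(A) tail, although some copies also yield polyadenylated transcripts, chiefly in cells that are differentiating or have left the cycle. The labels name the manufacturer's standard labelling protocol, which as a rule starts cDNA synthesis at poly(A) tails. A signal here therefore reads mainly polyadenylated or internally primed histone RNA and cannot be read as the amount of histone message.

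The arrays had been scaled alike, with trimmed means of 499.9 on each, and median signals from 49.4 to 51.1. LATS2 was read by 4 probe sets, of which 2 were above 200 on every array, with 219 and 377 for LATS2, 219 and 409 for LATS2N and 206 and 385 for EV. The other 2 were below the floor used here. Which part of the transcript they read is not known here, so they check no label. The floor is the median of all signals, 50.5. Of 9 measured markers of colon epithelium, 8 were above it on all arrays, with KRT18 between 43054 and 47247 and EPCAM between 16608 and 18756. CDX1 passed the floor on the LATS2N array only, at 55.0. Over 9 measured markers of other cells the summed signal was 1114 on the LATS2, 1191 on the LATS2N and 1020 on the EV array, and 3 of the 9 were above the floor on all arrays, while PTPRC, CD3E, COL3A1 and GFAP were below it throughout. Among them ACTA2, an actin of smooth muscle and myofibroblasts, was called in 1 probe set, at 103 on the LATS2, 100 on the LATS2N and 46.7 on the EV array, at least 2.04-fold higher for LATS2 over EV. The 8 probe sets of the list that could be rated in that comparison went both ways, with 3 above 0 and a median log2 ratio of -0.16. COL1A1, a collagen of fibroblasts, read 596, 607 and 325 in its brightest probe set, PECAM1, an endothelial adhesion molecule, 85.0, 91.6 and 142, and ALB, serum albumin, had a log2 ratio of -0.46 for LATS2 over EV. Their part in the histone values was not tested. The 3 probe sets for 18S ribosomal RNA, which also lacks a poly(A) tail, were lower on both construct arrays. Their median log2 ratio was -1.31 for LATS2 over EV, -0.70 for LATS2N over EV and -0.49 for LATS2 over LATS2N. The part of this shift in the histone values below was not tested.

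The promoters of 6 genes are shown, because the classes differ in the motifs they hold: at least 1 from each class, with those of H2AC17, H3C8 and H4C4, whose probe sets are called at 2-fold further on. The promoter of H1-4, the other called gene, is not shown. They are RefSeq sequences of assembly GRCh38.p14, 250 bases up to the base before the transcription start, written 5′ to 3′ on the strand of the gene, with motif matches in capitals. H1-2 encodes a linker histone of most dividing cells, H2AC6, H2AC17 and H2BC12 encode core histones H2A and H2B, and H3C8 and H4C4 encode H3 and H4.
H1-2, chr6:26056471-26056720, minus strand: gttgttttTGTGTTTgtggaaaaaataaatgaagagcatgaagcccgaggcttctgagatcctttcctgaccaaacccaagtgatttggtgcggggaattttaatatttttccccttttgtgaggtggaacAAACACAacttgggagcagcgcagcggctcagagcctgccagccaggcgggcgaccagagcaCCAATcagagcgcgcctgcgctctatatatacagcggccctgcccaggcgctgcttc
H2AC6, chr6:26123922-26124171, plus strand: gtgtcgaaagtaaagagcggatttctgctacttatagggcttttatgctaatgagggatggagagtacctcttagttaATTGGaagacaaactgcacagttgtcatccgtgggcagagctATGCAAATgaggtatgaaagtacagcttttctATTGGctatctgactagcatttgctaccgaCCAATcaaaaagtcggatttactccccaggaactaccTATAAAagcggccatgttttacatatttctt
H2AC17, chr6:27893186-27893435, minus strand: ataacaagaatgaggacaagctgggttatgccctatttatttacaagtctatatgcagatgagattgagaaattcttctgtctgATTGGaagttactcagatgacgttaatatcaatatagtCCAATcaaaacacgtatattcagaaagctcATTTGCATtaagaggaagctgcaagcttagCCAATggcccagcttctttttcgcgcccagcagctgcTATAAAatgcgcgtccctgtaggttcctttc
H2BC12, chr6:27146859-27147108, minus strand: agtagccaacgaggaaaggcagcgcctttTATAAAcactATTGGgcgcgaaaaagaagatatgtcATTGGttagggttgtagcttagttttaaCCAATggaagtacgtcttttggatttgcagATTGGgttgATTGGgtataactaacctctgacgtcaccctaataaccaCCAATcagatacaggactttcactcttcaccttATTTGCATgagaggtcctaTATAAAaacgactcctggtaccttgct
H3C8, chr6:26271414-26271663, minus strand: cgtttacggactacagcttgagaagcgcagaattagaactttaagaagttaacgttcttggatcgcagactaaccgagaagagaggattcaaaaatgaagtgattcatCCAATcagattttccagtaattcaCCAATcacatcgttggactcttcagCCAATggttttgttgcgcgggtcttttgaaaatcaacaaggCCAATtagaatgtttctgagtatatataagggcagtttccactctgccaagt
H4C4, chr6:26189113-26189362, minus strand: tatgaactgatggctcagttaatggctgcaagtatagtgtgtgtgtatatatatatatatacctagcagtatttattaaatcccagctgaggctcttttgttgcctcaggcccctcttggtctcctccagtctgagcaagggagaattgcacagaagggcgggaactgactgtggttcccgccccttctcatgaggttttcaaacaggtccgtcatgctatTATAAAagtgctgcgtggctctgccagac

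The motifs searched were the TATA box (TATAAA, strand of the gene), the CCAAT box (CCAAT, both strands), the octamer bound by OCT1 (ATTTGCAT, both strands) and the H1 box (AAACACA, both strands). No letters of these matches overlap in the 6 promoters shown. A TATA box lay 27 bases before the start in H2BC12, 29 in H4C4 and 31 in H2AC6 and H2AC17. These exact letters were not found in H1-2 or H3C8. Both hold a run of repeated TA letters near the end of the stretch shown, and such variants were not searched. The octamer lay 46 bases before the start in H2BC12, 98 in H2AC17 and 130 in H2AC6. H1-2 held the H1 box at 119 and 242 bases before the start, and H3C8 held 4 CCAAT boxes between 52 and 142 bases before it. H4C4 held no match but its TATA box.

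The classes differed in these letters across all 64 replication-dependent histone genes with a promoter in the RefSeq table. Of the 69 genes named by the probe sets, 59 were matched to a promoter. The H1 box was found in 6 of 6 H1 genes and in none of the H2A, H2B, H3 and H4 genes, against 5.95% of all 27305 genes of the table. The octamer was found in 14 of 18 H2B and 11 of 16 H2A genes, in 1 of 11 H3 genes, and in 0 of 6 H1 and 0 of 13 H4 genes, against 2.03% of all genes. All H1, H2A, H2B and H3 genes held a CCAAT box, but only 3 of 13 H4 genes did, against 37.0% of all genes. The exact letters TATAAA were present in 57.8% of the histone genes and 8.38% of all genes. Variants of the TATA box were not counted. Many H2A and H2B genes stand back to back and share part of their window, so their counts are not independent. A match describes letters and shows no binding.

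**Figure D1:**
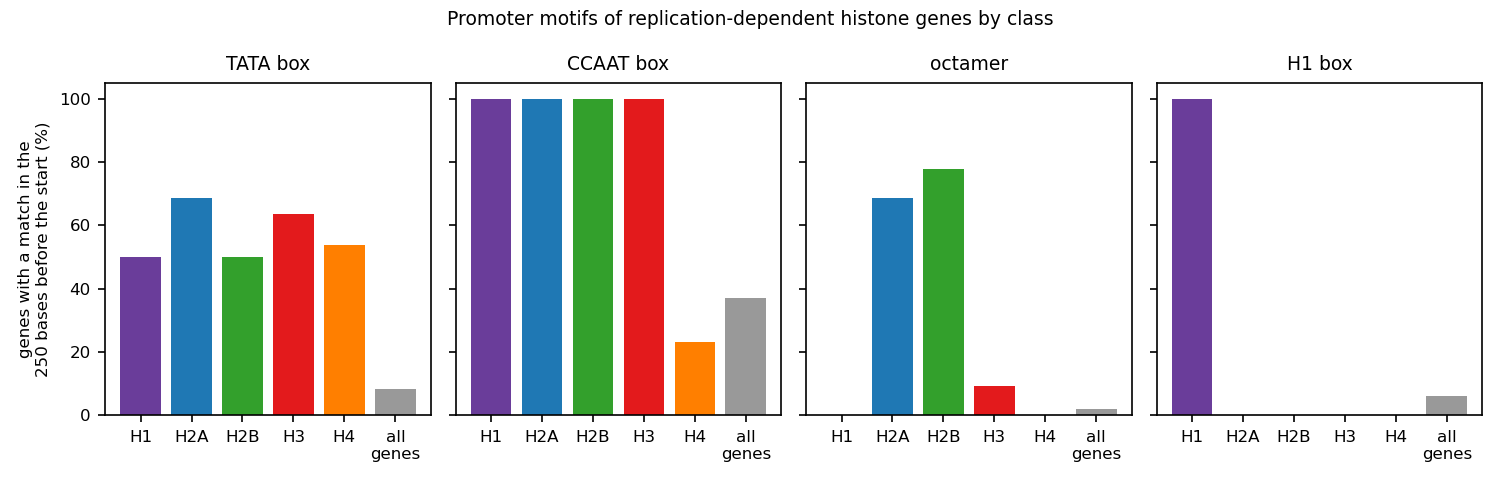
Share of genes (%, vertical axis) with at least 1 match to each motif in the 250 bases before the transcription start, for the 5 histone classes and for all genes of the RefSeq table (grey). The H1 box was found in H1 genes alone among the histone classes, the octamer mainly in H2A and H2B genes, and the CCAAT box in every class but in only 3 of 13 H4 genes.

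Histone probe sets were above the floor about as often as all probe sets. Of the 78 histone probe sets 37 (47.4%) were above the floor on all arrays, 12 on some and 29 on none, against 44.4% of all probe sets above it on all arrays. H2A probe sets were most often above the floor on all arrays, 13 of 16, followed by H2B with 11 of 20, H4 with 6 of 16, H1 with 3 of 14 and H3 with 2 of 10. Among the 7 replication-dependent H1 probe sets it was 2, and the pseudogene probe sets counted with H2A and H4 were below the floor. The other 2 carry H2A and H3 symbols and were above it. Probe sets with several symbols were above the floor on all arrays in 15 of 20 cases, against 22 of 58 with 1 symbol. The 6 probe sets whose genes all lie on chromosome 1 (H2AC18 with H2AC19, H2AC25 and H2BC21) were all above it, as were 26 of the 59 whose genes lie on chromosome 6. The signal of 1 probe set cannot be set against that of another as an amount of RNA.

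Signals above 500 on all arrays came from 11 probe sets. Of H4, the probe set that carries 14 H4 symbols and is listed with the transcript of H4C3 read 27805 on the LATS2, 30030 on the LATS2N and 25818 on the EV array. It was the only H4 probe set above 500, and the other 4 probe sets with the same 14 symbols read between 11.1 and 271 on the 3 arrays. Of H2B, H2BC12 read 3562 on the LATS2, 3347 on the LATS2N and 3639 on the EV array. The same order over the arrays did not hold for H2BC5, which was highest on the LATS2 array in both its probe sets, at 1113 on the LATS2, 917 on the LATS2N and 981 on the EV array in the brighter one. H2BC12L, a copy of H2BC12 outside the clusters on chromosome 21, read 1074, 964 and 1004 in the same order of arrays.

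Of the H2A genes, the brightest probe set of H2AC18 and H2AC19, a near-identical pair, read 1184 on the LATS2, 1038 on the LATS2N and 1051 on the EV array. H2AC6 read 925, 736 and 831 in that order, and so was also highest on the LATS2 array. H2AC25, an H2A gene on chromosome 1, was lowest on the LATS2 array, at 749 on the LATS2, 1136 on the LATS2N and 1010 on the EV array. Of the linker histones, H1-2 read 1012 on the LATS2, 808 on the LATS2N and 830 on the EV array. H1-10, which is not replication-dependent, read 2185, 2323 and 2289.

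The H3 probe sets were dim. The brightest carries 10 H3 symbols, is listed with the transcript of H3C10, and read 292 on the LATS2, 207 on the LATS2N and 243 on the EV array. H3C6 followed with 78.9, 90.1 and 69.1, and H3C7 with 65.6, 46.6 and 70.3. Among the linker histones H1-3 read 109, 120 and 130, while H1-1 and H1-5 stayed below the floor on every array. Of H4, the probe set annotated H4C11, whose listed transcript is that of H4C12, read 310, 336 and 323, and another with 14 symbols, listed with the transcript of H4C11, read 238, 271 and 185.

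Other probe sets lay between 200 and 500 on all arrays. H2BC6 read 436 on the LATS2, 379 on the LATS2N and 307 on the EV array, so that both construct arrays were above EV. H2AC14 read 230, 231 and 303 in that order and was lower on both. Of the probe sets that carry the symbols of 5 H2B genes, the one listed with the transcript of H2BC10 read 373, 227 and 325, and the one listed with that of H2BC7 had log2 ratios of -0.60 for LATS2 over EV and -0.68 for LATS2N over EV. H2BC9 read 250, 235 and 238, with little difference between the arrays. Of the dim genes, H2AC8 read 85.1, 69.6 and 97.4, H2AC4 read 93.9, 60.6 and 89.6, and H2BC21, a gene on chromosome 1 with a polyadenylated transcript, read 98.8, 97.7 and 106. These 3 were above the floor on all arrays, and the EV signal was highest for H2AC8 and H2BC21.

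**Figure D2:**
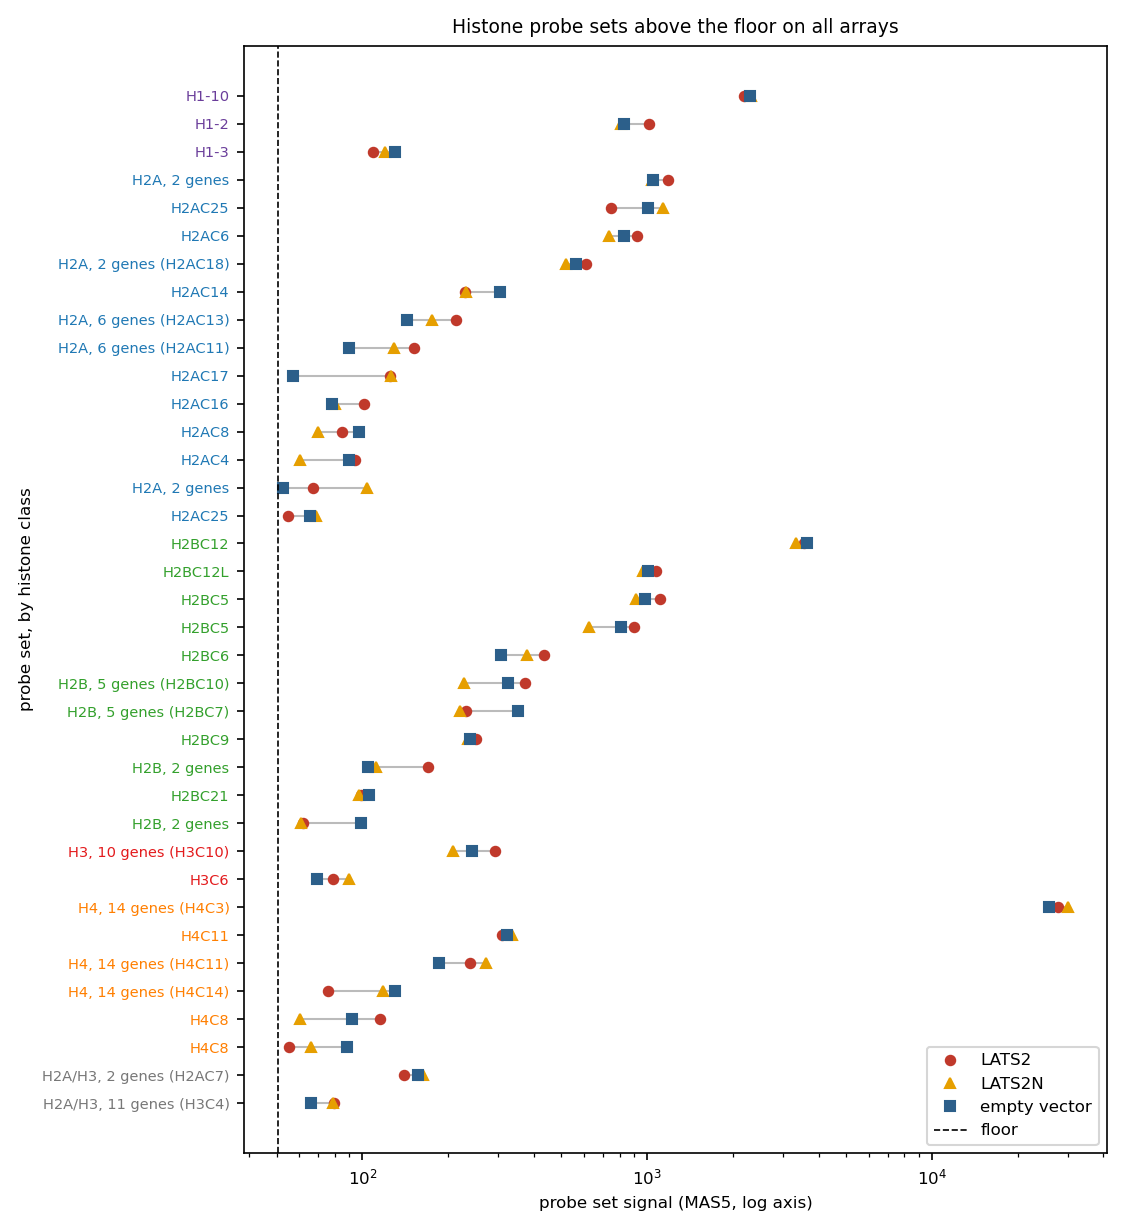
Signals on the LATS2 (circles), LATS2N (triangles) and EV (squares) arrays, on a log axis, for the 37 histone probe sets above the floor of 50.5 (dashed line) on all arrays, in order of class (label colours) and mean signal; for probe sets of several genes the label gives the class, the number of symbols and, in brackets, the gene of the listed transcript. The 3 signals of the probe sets above 500 lie close together, least so for H2AC25, and the gaps between arrays are widest among probe sets below 500.

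The LATS2 array was set against EV to ask whether histone transcripts differ with the full-length kinase. The 20 histone probe sets that read at least 200 on the brighter array had log2 ratios from -0.60 to 0.57 with a median of 0.14, and 14 of the 20 were above 0. None of them reached a 2-fold difference, and among all probe sets of that brightness 0.635% were 2-fold higher and 0.776% lower. Over all 48 histone probe sets that passed the floor on at least 1 of the 2 arrays, the median was 0.11, against 0.01 for all 29466 such probe sets, and 29 of 48 were above 0 (60.4%), against 51.4% of all. A call was a difference of at least 2-fold after signals below the floor were set to it. By that rule 2 histone probe sets were higher, beside 1.11% of all, and 1 was lower, beside 1.15%. At 1.5-fold, 4 of 48 were higher and 6 lower, beside 6.37% and 6.19% of all probe sets. With counts this small, no share was read as different from that of all probe sets.

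The called genes were all dim. H3C8, an H3 gene of the chromosome 6 cluster, read 120 on the LATS2, 70.1 on the LATS2N and 5.42 on the EV array, which made it at least 2.38-fold higher with full-length LATS2 than with EV. Only its EV signal was below the floor, and its probe set is of the kind that may read shared targets. The 10-gene H3 probe set listed with H3C10 and a probe set of 11 H2A and H3 genes also name H3C8. Each had a log2 ratio of 0.26 for LATS2 over EV, and another 10-gene probe set was below the floor on all arrays. H2AC17 read 125 on the LATS2, 126 on the LATS2N and 57.1 on the EV array, and was 2.19-fold higher on the LATS2 array than on EV. Both constructs lay together, with the EV signal close to the floor. H1-4, a linker histone, read 34.1 on the LATS2, 88.7 on the LATS2N and 101 on the EV array, and was at least 2.00-fold lower on the LATS2 array than on EV. With arrays centred on their medians its log2 ratio was -0.99, and it was no longer called. With the floor at the 75th percentile of all signals none of these 3 was called.

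How far 2 probe sets of 1 gene differ gives a measure of noise within these arrays, though not between cultures. Over genes other than histones, the robust SD of a log2 ratio of LATS2 over EV was 0.44 where the dimmer signal lay from 50 to 100, 0.27 from 200 to 500, 0.18 from 500 to 2000 and 0.12 above that. The log2 ratio of H2AC25 was -0.43, and its dim second probe set gave -0.25. That of H1-2 was 0.29, that of H2BC5 0.18, with 0.16 for its other probe set, and that of H2BC12 -0.03. Among all probe sets of like brightness, 95% lay between -0.64 and 0.63 at signals from 500 to 2000, so all 8 histone values of that range, H2AC25 included, were inside the middle of the array's own spread. Over every brightness, 1 of 48 histone probe sets was outside it, H3C8.

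The LATS2N array was set against EV with the same control, so that these values and the last are not independent. The 19 histone probe sets of at least 200 had log2 ratios from -0.68 to 0.55, with a median of -0.06, and 6 of them were above 0. None reached 2-fold, beside 0.376% of all such probe sets that were higher and 0.331% that were lower. Over the 47 histone probe sets that passed the floor the median was -0.10, against 0.01 for all probe sets, with 19 above 0 (40.4%), against 50.8% of all. The only call was H2AC17, 2.20-fold higher on the LATS2N array, so that 1 of 47 was called higher, beside 0.932% of all, and 0 lower, beside 0.834%. At 1.5-fold, 3 were higher and 5 lower, beside 5.17% and 4.87% of all.

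H2AC17 belongs to a group of H2A genes of chromosome 6 that share probe sets. Beside its own probe set, 2 carry the symbols of H2AC11, H2AC12, H2AC13, H2AC15, H2AC16 and H2AC17. The first, listed with the transcript of H2AC11, read 151 on the LATS2, 129 on the LATS2N and 90.0 on the EV array. The second, listed with that of H2AC13, read 214, 175 and 144 in that order. H2AC16 read 101, 79.9 and 78.3, and the 2 probe sets for H2AC15 were below the floor. All 4 measured probe sets were thus above EV on both construct arrays, with log2 ratios from 0.37 to 1.13 for LATS2 and from 0.03 to 1.14 for LATS2N. They may read the same transcripts and share the EV array, so they are not separate measurements.

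The bright probe sets differed in their LATS2N ratios. The 2 probe sets of 5 H2B genes were lowest, at -0.68 and -0.52, and the 14-gene H4 probe set listed with H4C11 was highest, at 0.55. The brightest, the 14-gene H4 probe set listed with H4C3, had 0.22, which fell to 0.12 after quantile normalisation of the arrays. H1-2 had a log2 ratio of -0.04, H2AC6 -0.18, H2BC12 -0.12, H2BC5 -0.10 and -0.36 in its 2 probe sets, and H2AC25 0.17. The robust SD between probe sets of 1 gene was 0.33 where the dimmer signal lay from 100 to 200 and 0.24 from 200 to 500. It was 0.15 from 500 to 2000 and 0.090 above 2000. The dimmer signals behind the ratios of -0.68, -0.52 and 0.55 were 219, 227 and 185. Of 13 H2B probe sets, 11 were below EV, with a median of -0.12, but several of them carry the same symbols. Outside the middle 95% of all probe sets of like brightness were 2 of the 47 histone probe sets, H2AC17 and H4C4. The log2 ratio of H4C4 was -0.96, short of a call, with its LATS2N signal set to the floor. Without a floor it was -1.69.

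**Figure D3:**
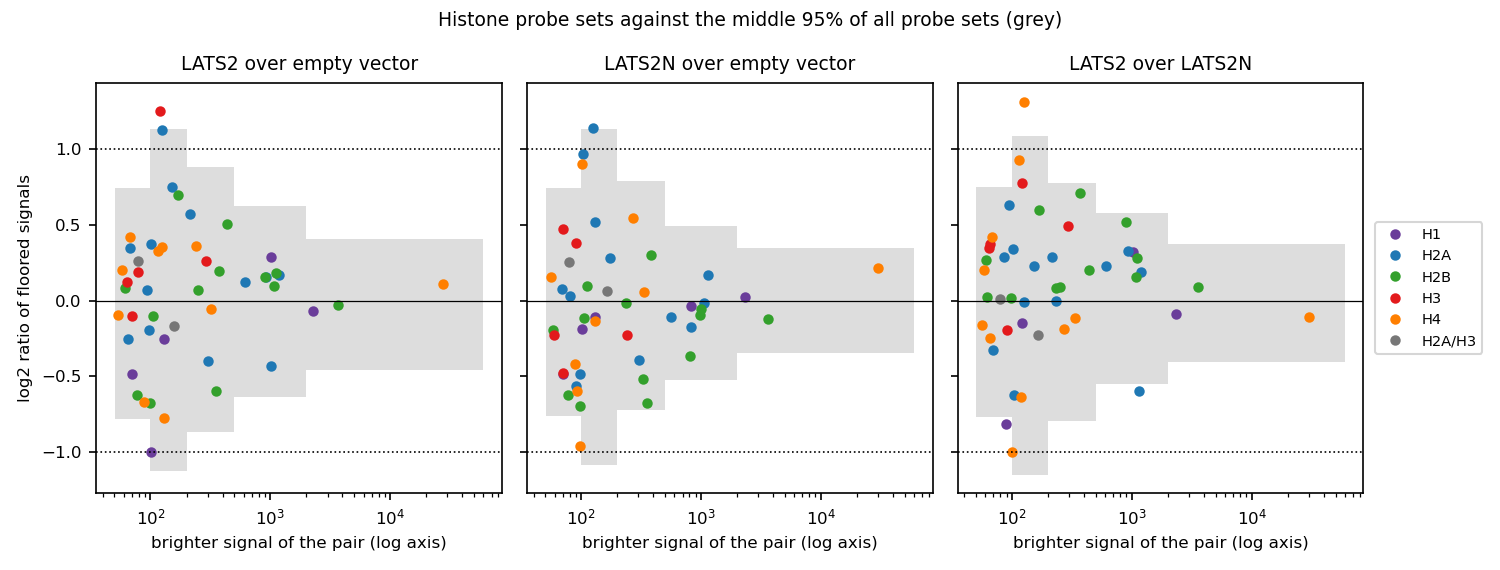
Log2 ratio of floored signals (vertical axis) against the brighter signal of the pair (log axis) for histone probe sets, coloured by class, in the 3 comparisons; grey marks the middle 95% of all probe sets in each of 5 ranges of signal, and dotted lines mark 2-fold. Histone probe sets lie inside the grey area except for 1 of 48 (LATS2 over EV), 2 of 47 (LATS2N over EV) and 3 of 47 (LATS2 over LATS2N).

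The LATS2 array was then set against LATS2N, which leaves out the EV array and compares the full-length protein with its N-terminal fragment. Both arrays were used above, so these values are not independent of the earlier ones. The 20 probe sets of at least 200 had log2 ratios from -0.60 to 0.71, a median of 0.17, and 14 of them above 0. None was called, beside 0.369% of all such probe sets that were higher and 0.602% that were lower. Over 47 histone probe sets the median was 0.16, against 0.01 for all probe sets, and 30 were above 0 (63.8%), against 51.3% of all. The only call was H4C4, which read 126 on the LATS2, 30.5 on the LATS2N and 98.5 on the EV array and was at least 2.49-fold higher with LATS2 than with LATS2N. That made 1 of 47 called higher, beside 0.849% of all, and 0 lower, beside 1.1%. Of the 14-gene H4 probe sets, which also name H4C4, the 3 above the floor on all arrays lay between -0.64 and -0.11. H4C5 read 43.8 on the LATS2, 101 on the LATS2N and 54.0 on the EV array. With its LATS2 signal set to the floor, it lay just short of a call in the other direction. At 1.5-fold, 6 were higher and 5 lower, beside 5.38% and 5.65% of all.

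In this comparison all 12 measured H2B probe sets were above 0, beside 51.3% of all probe sets. Their median log2 ratio was 0.18, and values among those above the floor on all arrays ran from 0.02 to 0.71. Several of the 12 carry the same symbols and all share the same pair of arrays, so they are not separate measurements. The LATS2N array is also the one on which 11 of 13 H2B probe sets were below EV. H2BC5 was 0.28 and 0.52 in its 2 probe sets, and H2BC12 was 0.09. The H2A probe sets had a median of 0.23 with 8 of 13 above 0, and the H3 probe sets 0.38 with 4 of 5. H4 ran the other way, with a median of -0.11 and 4 of 11 above 0, and H1 had -0.12 with 1 of 4, or -0.15 with 1 of 3 without H1-10. H2AC25, at -0.60, was outside the middle 95% of all probe sets of like brightness, as were H1-4 at -0.81 and H4C4. The robust SD of single ratios in this comparison was 0.51 for dimmer signals from 50 to 100 and 0.16 from 500 to 2000. No test of a difference between classes was possible with 1 array a group.

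**Figure D4:**
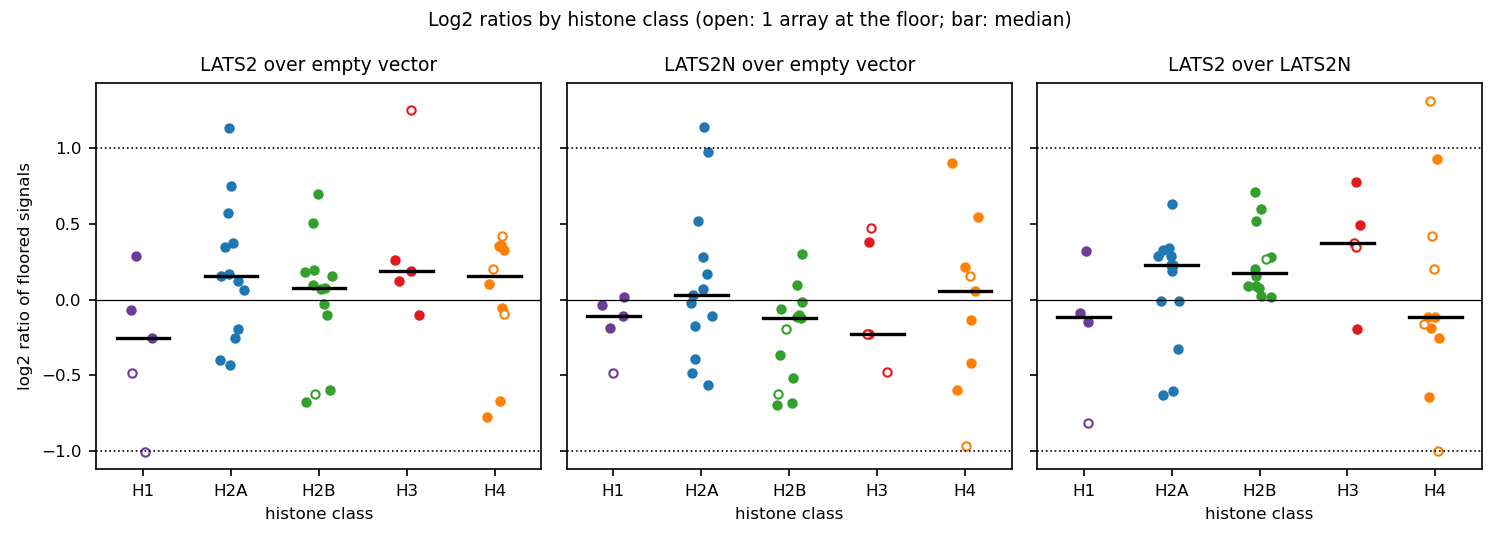
Log2 ratios of floored signals of the histone probe sets of each class in the 3 comparisons; open circles have 1 array at the floor, black bars are medians, and dotted lines mark 2-fold. The H2B values for LATS2 over LATS2N are all above 0, though several of these probe sets carry the same symbols. The classes overlap in every comparison.

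Probe sets that carry the same symbols did not always give the same answer. The 2 probe sets for H4C8 gave log2 ratios of 0.33 and -0.67 for LATS2 over EV, and both were below EV on the LATS2N array, at -0.60 and -0.42. For LATS2 over LATS2N they gave 0.93 and -0.25. The 2 for H2BC11 and H2BC8 gave 0.70 and -0.68 for LATS2 over EV. Of the 3 for H2AC18 and H2AC19, the dim one gave 0.97 for LATS2N over EV, against -0.02 and -0.11 for the brighter ones. The 3 of the 14-gene H4 probe sets that passed the floor on all arrays lay between -0.78 and 0.36 for LATS2 over EV. Which transcripts each probe set reads was not tested.

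**Figure D5:**
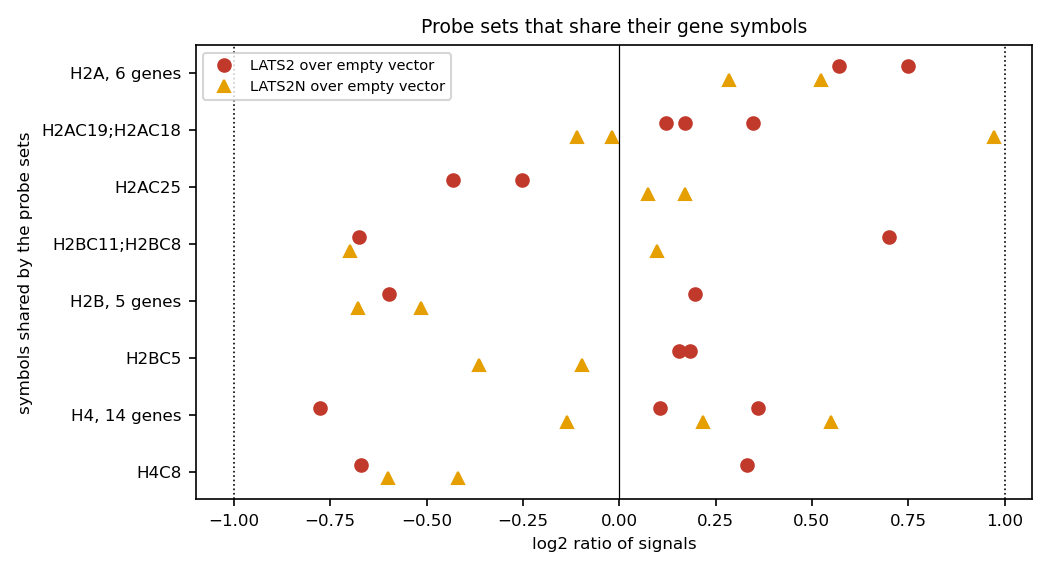
Log2 ratios of LATS2 over EV (circles) and LATS2N over EV (triangles) for probe sets above the floor on all arrays that share their symbols, 1 row for each set of symbols. The 2 probe sets of H2BC5 and of H2AC25 lie on the same side of 0 in each comparison, while those of H4C8 and of H2BC11 with H2BC8 lie on both sides for LATS2 over EV.

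The other genes of histone supply were read from lists of probe sets with exactly 1 symbol. Of the genes listed as replication-independent variants, 13 of 19 had a probe set. The list is mixed, and it also holds the germline linker histones H1-7 and H1-8. H2AZ1, a variant found at gene starts, read 24576 on the LATS2, 27706 on the LATS2N and 24752 on the EV array, and MACROH2A1, a variant of silenced chromatin, 17660, 17573 and 16859. H2AZ2, a close relative of H2AZ1, read 9457, 8581 and 7849. The medians were 0.06 for LATS2 over EV (23 probe sets), 0.06 for LATS2N over EV (22) and -0.02 for LATS2 over LATS2N (22). Of the 23 probe sets rated for LATS2 over EV 1 was called, beside 1.11% of all called higher. It was the dimmest of the 3 shared-target probe sets of H2AJ, an H2A variant of ageing cells, which was higher on the LATS2 array against EV and against LATS2N, at least 2.16-fold in each, with 109 on the LATS2, 46.6 on the LATS2N and 35.1 on the EV array. Against LATS2N it was the 1 call among 22 rated probe sets, beside 0.849% of all called higher. The 2 bright ones gave log2 ratios of 0.19 and 0.34 for LATS2 over EV, and -0.07 and -0.02 for LATS2 over LATS2N. A further dim probe set of H2AJ gave -0.10 and -0.07 in the same order of comparisons.

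Factors that transcribe histone genes and form the 3′ end of their messages lay on both sides of EV. Of 32 genes 30 had a probe set, with none called in any comparison and medians of -0.03 for LATS2 over EV, -0.06 for LATS2N over EV and 0.02 for LATS2 over LATS2N. SLBP, the stem-loop binding protein, read 8166 on the LATS2, 8521 on the LATS2N and 8632 on the EV array. SRRT, which links the cap-binding complex to RNA processing, read 10100, 9575 and 9719, and the transcription factor YY1 read 8033, 7257 and 7810. Of the 65 rated probe sets 28 were above 0 for LATS2 over EV, and the log2 ratios ran from -0.95 to 0.51. The lowest was a second, dimmer probe set of SRRT, at 211 on the LATS2, 248 on the LATS2N and 408 on the EV array, 1.93-fold lower for LATS2 over EV and unlike the bright one. LSM11 is a part of the particle that cuts the histone message. A dim probe set of it had a log2 ratio of -0.71 for LATS2 over EV, and a brighter one -0.03. CSTF2T, a cleavage factor subunit, gave -0.58 in 1 probe set and -0.17 in a brighter one. CCNE2, a cyclin of S-phase entry, gave -0.52 in 1 probe set and -0.15 in a dimmer one. These genes were chosen after their values were seen. The S-phase list, whose genes are expressed in the same phase as histones, had 39 of 40 genes measured, none called, and medians of -0.03, 0.00 and -0.02 in the same order of comparisons. Its log2 ratios for LATS2 over EV ran from -0.53 to 0.39. In it RRM2, a subunit of ribonucleotide reductase, read 16219 on the LATS2, 18650 on the LATS2N and 18811 on the EV array, TYMS, which makes thymidylate, 14796, 15839 and 17069, and PCNA, the sliding clamp of DNA polymerases, 14449, 15369 and 13008.

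The polyadenylation list, 12 of 12 genes measured, also held no call, with medians of 0.06, 0.05 and 0.03 in that order and log2 ratios from -0.31 to 0.86 for LATS2 over EV. Its highest signals were those of PABPC1, the cytoplasmic poly(A)-binding protein, with a log2 ratio of 0.08 for LATS2 over EV, PAPOLA, a poly(A) polymerase, with 0.12, and CPSF6, a cleavage factor subunit, with 0.03. Of 25 chaperone genes 24 were measured, and the medians were -0.02, -0.04 and 0.06. MCM2, NAP1L1 and RBBP7, which all bind histones, had log2 ratios of 0.11, 0.07 and 0.01 for LATS2 over EV. Of 54 rated chaperone probe sets 2 were called for LATS2 over EV, both lower, beside 1.15% of all probe sets. HIRA, which deposits the H3.3 variant outside replication, read 2756 on the LATS2, 3817 on the LATS2N and 6056 on the EV array, 2.20-fold lower for LATS2 over EV. The second probe set for HIRA was below the floor. SUPT16H, a subunit of the FACT complex, was 2.15-fold lower in its dim probe set (235 on the LATS2, 316 on the LATS2N and 505 on the EV array), while its bright one read 7462, 6322 and 6379.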

How the data were processed

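Total RNA of 3 cell cultures was hybridised to Affymetrix arrays of 54675 probe sets. The deposited values are intensities per probe set on a linear scale, made by the authors with MAS5, as named per the submitters' processing notes. Its version and settings are not given in the sources used here. That each array was scaled to 1 trimmed mean (2% left out at each end) was found from the values. No detection calls were used. The number of arrays limits the precision.

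Symbols are those of the platform annotation, which are unchanged in the RefSeq gene table of GRCh38.p14 for all 78 histone probe sets. Of the 20 with several symbols, 15 list a transcript accession that belongs to 1 gene of that table. Signals below the median of all signals (50.5) were set to it, log2 ratios were taken, and a call was a difference of at least 2-fold. Probe sets at or below the floor on both arrays of a pair were not rated. Calculations used Python 3.11.15, numpy 2.4.6 and pandas 2.3.3. The ratios and calls were also run on simulated data with known shifts, placed only in probe sets with a mean signal over 200. The dim histone calls reported here were thus not covered by that simulation.

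Named were every called histone probe set, the 3 with the highest mean log2 signal in each class, sets of symbols whose probe sets disagreed in direction by over 1 on the log2 scale, and in each list the called probe sets and the 3 highest genes. Further members are named to account for the classes, a choice made with their values known. The members and lists were chosen with earlier results of these data known. Alternatives were other floors, 2 other scalings, a 1.5-fold call, other choices of probe sets, 1 value per gene and a signal minimum of 200.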

Additional observations from a re-analysis of the deposited data

How the results depend on the processing

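The medians over the histone probe sets moved by less than 0.1 under the 11 alternatives that bear on them, 1 of them chosen after seeing the data: from 0.07 to 0.16 for LATS2 over EV, from -0.12 to -0.05 for LATS2N over EV and from 0.07 to 0.20 for LATS2 over LATS2N. The counts of calls depended on the floor, and the called signals were dim. With a floor at the 25th percentile there were 2 higher and 4 lower for LATS2 over EV, 6 higher and 7 lower for LATS2N over EV, and 6 higher and 5 lower for LATS2 over LATS2N. These are between 3.03% and 10.4% of the histone probe sets rated, and the shares of all probe sets called at that floor lay between 5.64% and 6.68%. With no floor these were 6 higher and 8 lower, 7 higher and 9 lower, and 9 higher and 10 lower, between 7.69% and 12.8%, while between 11.9% and 13.3% of all probe sets were called. A floor at the 75th percentile left 0 calls in every comparison, where at most 0.225% of all probe sets were called, and so did a minimum of 200 for the brighter signal. A 1.5-fold call gave 4 higher and 6 lower, 3 higher and 5 lower, and 6 higher and 5 lower. Centring the arrays on their medians left 0 lower for LATS2 over EV, and leaving out probe sets of possible shared targets left 1 higher there. Leaving out the 9 probe sets of other kinds, an alternative chosen after seeing the data, changed no count by over 1.5 times. Of the named probe sets' ratios, 24 moved by more than the robust SD between probe sets of 1 gene, all but 1 of them under another floor, 261 did not, and no called ratio changed sign. No paired analysis was possible because each group had 1 array.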
